A study of Mus musculus with 24 samples.

Results

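The 7 genes described here belong to serine synthesis and the amino acid stress response, and they were followed in the ventral prostate of 6 inbred mouse strains. They are Phgdh, Psat1 and Psph, which carry out the steps of serine synthesis, Shmt2, which passes serine on to mitochondrial one-carbon metabolism, and Asns, Trib3 and Nupr1, which are switched on in cells short of amino acids or under endoplasmic reticulum stress. All probe sets annotated to these genes were taken, which gave 19 of the 22626 probe sets on the array that are not controls, for 7 of 12393 named genes. The genes were selected on these same values, because strain differences had already been seen in some of them, so their levels by strain are a description and carry no p-value.

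Mice of the strains BALB/c, AKR, SWR, FVB, C57BL/6 and 129X1 were used. All were wild type, 8 weeks old, kept on a standard diet and untreated, and each strain was represented by 4 arrays labelled as biological replicates. The series title gives its aim as finding cancer modifiers from expression in parental strains. Total RNA of the lobe was hybridised to Affymetrix MOE430A arrays, which read each gene with 1 or more probe sets.

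The values are on a log2 scale after 16 was added to each intensity, so 1 unit is close to a doubling for bright probe sets and understates the change of faint ones. Of the 24 arrays, 24 were closest to another array of their own strain. The 7 luminal markers of the ventral prostate that were measured, among them probasin (Pbsn), Msmb and Spink1, were bright on every array, with a lowest value of 9.13. RNA came from whole tissue, so fewer cells of a type and less RNA per cell cannot be told apart.

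Serine is made from the glycolytic intermediate 3-phosphoglycerate. Phgdh oxidises it, Psat1 transfers an amino group to the product, and Psph removes the phosphate. When amino acids run short, uncharged tRNA activates the kinase Gcn2, eIF2 alpha is phosphorylated, and translation of the transcription factor ATF4 increases. ATF4 with C/EBP partners binds a composite DNA element, known as the C/EBP-ATF response element, and raises transcription of amino acid synthesis and transport genes. Secretory epithelia such as the prostate make much protein, and the same branch is also engaged from the endoplasmic reticulum by the kinase Perk (Eif2ak3).

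The letters TGATGNAA of this element were searched on both strands of the reference promoters, each running from 250 bases before the gene's start to 50 bases after it. All 7 genes matched, with 8 promoters. The 3 stress genes Asns, Nupr1 and Trib3 each held the letters once, and the 4 metabolic genes Phgdh, Psat1, Psph and Shmt2 did not hold them in this window. Over all genes with a RefSeq promoter, 4.51% held them. The stretches with a match are shown here because these genes are the textbook targets of ATF4. They are from RefSeq (GRCm38.p6, the C57BL/6J reference), read 5′ to 3′ along the gene's strand, which is the minus strand in each case, with the match in capitals. A match of letters is a description and not a measured binding site, and the promoters of the other 5 strains were not read.
Asns, chr6:7693210-7693289, 80 to 1 bases before the start: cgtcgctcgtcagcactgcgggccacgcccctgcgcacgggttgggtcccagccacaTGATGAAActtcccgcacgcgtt
Nupr1, chr7:126625537-126625616, 146 to 67 bases before the start: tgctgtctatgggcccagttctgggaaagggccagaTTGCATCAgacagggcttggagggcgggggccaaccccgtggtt
Trib3, chr2:152344028-152344057, from base 4 to base 33 after the start: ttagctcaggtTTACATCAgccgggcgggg
In Asns the letters lie on the gene's own strand. In Nupr1 and Trib3 they lie on the opposite strand and read TGATGCAA and TGATGTAA there.

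Phgdh, the enzyme that commits 3-phosphoglycerate to serine, was read by 6 probe sets. Of these, 4 name Phgdh alone, and the other two also name Gm8096 or Gm6756, gene models of like sequence. At the brightest, 1426658_x_at, the log2 values were 10.18, 10.05, 10.27 and 10.29 in AKR, 10.28, 10.09, 9.99 and 9.98 in FVB, 10.18, 10.38, 9.72 and 10.00 in BALB/c, 9.84, 9.85, 9.93 and 9.91 in 129X1, 9.83, 9.68, 9.96 and 9.84 in SWR, and 9.53, 9.76, 9.77 and 9.77 in C57BL/6. AKR was highest and C57BL/6 lowest, 1.41-fold apart between 10.20 ± 0.11 and 9.71 ± 0.12 (SD, n = 4 arrays each). Every pair of neighbours in this order overlapped, and with the adipocyte score in the model AKR was no longer the highest. C57BL/6 was also the lowest strain at 1437621_x_at, where BALB/c averaged 9.76 ± 0.22 and C57BL/6 averaged 9.14 ± 0.15, though BALB/c was not the highest there with the smooth muscle score in the model. It was lowest again at 1456584_x_at, with 9.44 ± 0.15 in FVB and 8.95 ± 0.05 in C57BL/6.

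The remaining probe set that names Phgdh alone, 1454714_x_at, gave another picture. Its log2 values were 10.46, 9.97, 10.36 and 10.06 in FVB, 9.92, 9.88, 9.97 and 10.06 in AKR, 9.71, 9.63, 9.88 and 9.79 in SWR, 9.44, 9.58, 9.80 and 9.62 in 129X1, 9.64, 9.49, 9.76 and 9.50 in C57BL/6, and 6.59, 7.01, 6.88 and 6.69 in BALB/c. The 4 BALB/c arrays lay far below the other 20, whose lowest value was 9.44. All 4 arrays of BALB/c were lowest in this way at 0.856% of all tested probe sets. The BALB/c mean minus the mean of the other 5 strains was -3.04 on the log2 scale, and the other strains spanned 1.53-fold. BALB/c arrays were separated in the same direction at 1456471_x_at, which names Gm6756 and Phgdh, with 6.52 ± 0.14 in BALB/c against single arrays from 8.83 to 9.74 in the other strains. At the other 4 Phgdh probe sets BALB/c lay 0.04 to 0.40 above the mean of the other 5 on the log2 scale. Within the same BALB/c RNA, 2 probe sets were therefore low and 4 were not, and Phgdh has no single level in BALB/c on this array.

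**Figure D1:**
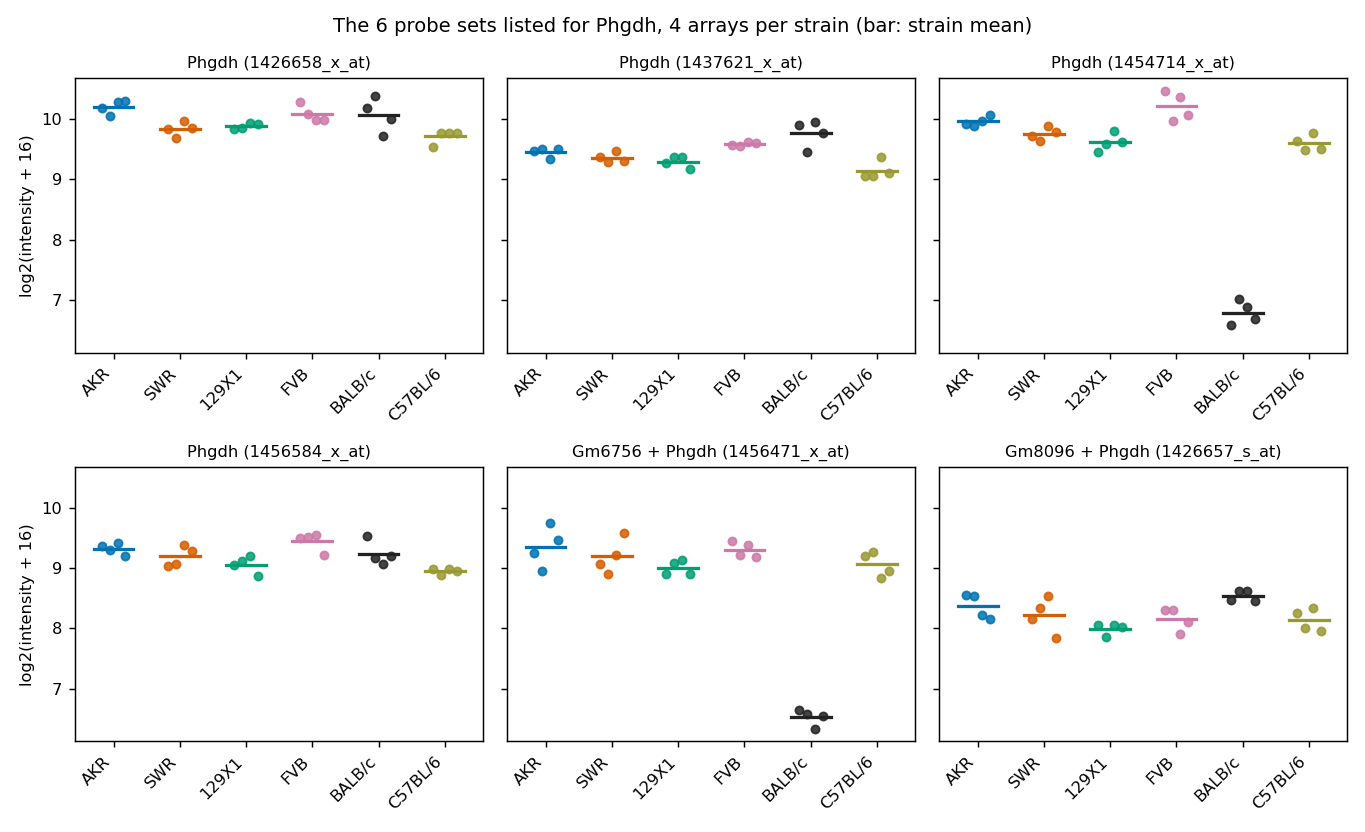
Log2 values (intensity plus 16) of the 6 probe sets listed for Phgdh, 1 panel each, with 4 arrays per strain as points and the strain mean as a bar. In 1454714_x_at and 1456471_x_at the BALB/c arrays stand apart below all the others, at means of 6.79 and 6.52, while in the other 4 panels they lie among or above the other strains.

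Psat1, the aminotransferase of the pathway, was faint. At 1451064_a_at its log2 values were 6.35, 6.48, 6.25 and 5.88 in AKR, 6.25, 6.33, 6.08 and 6.19 in FVB, 6.65, 5.77, 6.08 and 6.07 in BALB/c, 6.20, 6.03, 6.09 and 6.13 in SWR, 5.90, 5.77, 5.92 and 5.87 in 129X1, and 5.33, 5.55, 5.48 and 5.44 in C57BL/6. The 4 C57BL/6 arrays lay below all the others, as they did at 0.628% of all tested probe sets, and the 4 highest strains overlapped. AKR averaged 6.24 ± 0.26 and C57BL/6 averaged 5.45 ± 0.09 (SD, n = 4 each). The probe set exceeded its array's 40th percentile, which was between 5.52 and 5.72, on 0 of the 4 C57BL/6 arrays and on 20 of 24 arrays in all. The C57BL/6 level is therefore not above the threshold used for dim probe sets, and no fold is given. The second Psat1 probe set, 1454607_s_at, was left out of the tests as dim and had strain means from 5.33 in FVB to 4.90 in 129X1.

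Psph, the phosphatase that releases serine, had 1 probe set, and its values were also faint. SWR had 6.09, 6.22, 6.55 and 6.19 and C57BL/6 had 5.86, 5.68, 5.65 and 5.64, on the log2 scale. These 2 strains did not overlap, while the remaining arrays lay between 5.63 and 6.29. The SWR and C57BL/6 means of 6.26 ± 0.20 and 5.71 ± 0.10 (SD, n = 4 each) were 1.47-fold apart, a span that shrinks with a larger added constant, from a log2 range of 0.55 to 0.32 with 64 added. By the probe sets that name 1 gene, all 3 serine synthesis enzymes thus had their lowest strain mean in C57BL/6, apart from Phgdh at 1454714_x_at and the dim Psat1 probe set. Leaving out any array or changing the processing left C57BL/6 lowest at Psph, at Psat1 1451064_a_at and at those 3 Phgdh probe sets, in 33 of 33 settings for each. Among the settings, no dim filter and the replicate number as a block leave these strain means unchanged by design. C57BL/6 was also low in some cell type markers, and shared the low basal markers with BALB/c. The summed intensity of 5 basal epithelium markers was 262 to 299 in C57BL/6 and 251 to 292 in BALB/c, against 380 to 924 in the other strains. That of 2 red blood cell markers was 19.8 to 68.4 in C57BL/6, which overlapped AKR (43.4 to 77.2), and 73.8 to 114 in the other strains. The sum of 5 adipocyte markers was 215 to 245 in C57BL/6, which overlapped AKR (204 to 349) and SWR (237 to 457). Their part in the low values of C57BL/6 was not tested.

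Shmt2, the mitochondrial serine hydroxymethyltransferase, had 4 probe sets, of which 1434204_x_at was left out as dim. At the brightest, 1455084_x_at, the BALB/c arrays had 6.31, 6.84, 6.37 and 7.04 and the 129X1 arrays had 6.34, 6.49, 6.36 and 6.39. The strain means spanned 1.19-fold and all neighbours overlapped. The probe sets did not give 1 order of the strains. At 1426423_at the highest strain was 129X1 (6.14 ± 0.13) and the lowest AKR (5.54 ± 0.57), close to BALB/c (5.58 ± 0.78). AKR was lowest there in 26 of 33 settings. Probe set 1426423_at was faint and exceeded its array's 40th percentile on 15 of 24 arrays, among them 1 of AKR. At 1455985_x_at FVB averaged 5.54 ± 0.36 and C57BL/6 averaged 4.97 ± 0.37. That probe set passed the dim filter only through 3 arrays of FVB and 1 of BALB/c, so no order of strains is read from it.

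Asns, which makes asparagine from aspartate and glutamine, had 2 probe sets, and they gave the same order of strains. At 1451095_at the log2 values were 9.25, 9.17, 9.36 and 9.23 in BALB/c, 9.15, 8.98, 9.29 and 9.17 in SWR, 8.92, 8.81, 8.93 and 8.86 in C57BL/6, 8.91, 8.60, 8.79 and 8.51 in FVB, 8.53, 8.60, 8.67 and 8.65 in 129X1, and 8.28, 8.22, 8.30 and 8.33 in AKR. The 4 AKR arrays lay below all the others, as they did at 0.520% of all tested probe sets, and BALB/c overlapped SWR at the top. The means of BALB/c (9.25 ± 0.08) and AKR (8.28 ± 0.05) were 1.96-fold apart (SD, n = 4 each). At 1433966_x_at they were 7.76 ± 0.38 in BALB/c and 7.01 ± 0.12 in AKR, a 1.68-fold span. The strain means of both probe sets had a Pearson correlation of 0.97 over the 6 strains, given as a description of values from the same RNA. With the intensities left as deposited, without rescaling of the arrays, SWR in place of BALB/c was the highest strain at both, and BALB/c lost the first place at 1433966_x_at also without BALB/c replicate 3 and with the smooth muscle score in the model.

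Trib3, a pseudokinase that ATF4 induces and that dampens Akt and ATF4 itself, was faint at both probe sets. At 1426065_a_at C57BL/6 had 6.02, 6.21, 6.01 and 5.95 and 129X1 had 5.57, 5.02, 5.89 and 5.53 on the log2 scale. These 2 strains did not overlap, but every pair of neighbours in the order overlapped, and the probe set exceeded its array's 40th percentile on 17 of 24 arrays. At 1456225_x_at the highest strain was FVB (5.92 ± 0.22) and the lowest BALB/c (5.45 ± 0.59), which was lowest in 28 of 33 settings. The strain means of the 2 probe sets had a correlation of 0.29 over 6 strains.

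Nupr1, a small chromatin-associated stress protein, had the widest range among the strains by the brightest probe sets. At 1419666_x_at the log2 values were 11.59, 11.42, 11.60 and 11.37 in BALB/c, 10.54, 10.17, 10.69 and 10.78 in AKR, 10.43, 10.29, 9.67 and 9.48 in FVB, 9.63, 9.61, 10.01 and 9.13 in 129X1, 9.59, 9.43, 9.29 and 9.76 in C57BL/6, and 8.18, 8.27, 7.69 and 8.17 in SWR. All BALB/c arrays lay above the other 20 (1.27% of all tested probe sets) and all SWR arrays below them (0.463%), while AKR, FVB, 129X1 and C57BL/6 overlapped in turn. In intensity this was 2874 ± 234 in BALB/c and 258 ± 45.3 in SWR (SD, n = 4 each). The log2 means of 11.49 ± 0.12 and 8.08 ± 0.26 were 10.7-fold apart. The second probe set, 1419665_a_at, gave the same order, with 11.31 ± 0.29 in BALB/c and 7.71 ± 0.31 in SWR, 12.2-fold apart. The range at 1419666_x_at lay at the 99.74th percentile of all 15775 probe sets tested.

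**Figure D2:**
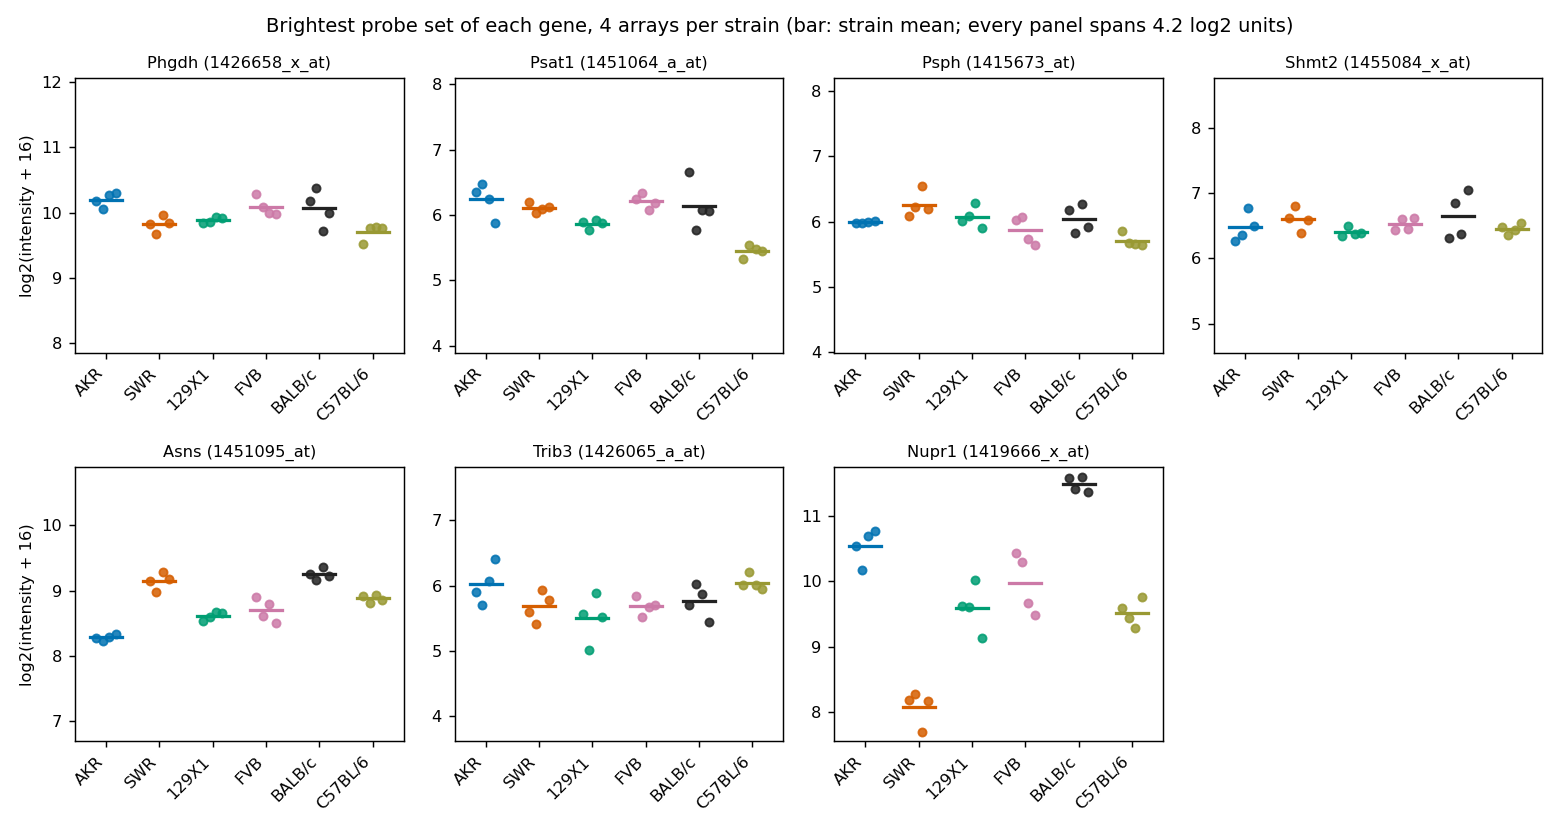
Log2 values (intensity plus 16) of the brightest probe set of each of the 7 genes, with 4 arrays per strain as points and the strain mean as a bar. Every panel spans the same number of log2 units, so the spread of Nupr1 from 11.49 in BALB/c to 8.08 in SWR can be set beside the narrow ranges of Phgdh and Shmt2.

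BALB/c also lay at one end of some cell type markers. The summed intensity of the 7 luminal markers was 33910 to 37947 in BALB/c and 17406 to 29988 in the other strains, and that of 8 smooth muscle markers was 4606 to 4842 in BALB/c and 5484 to 12639 in the other strains. In the luminal score, which weights the 7 markers equally, BALB/c (0.20 to 0.38) overlapped AKR (-0.26 to 0.33). Their part in the Nupr1 and Asns levels of BALB/c was not tested. Alternative fits with a marker score in the model are given as a description. The smooth muscle score was -0.84 to -0.59 in BALB/c and -0.48 or more in every other strain. A fit with this score therefore cannot separate score from strain in BALB/c. With the score of smooth muscle the log2 range of Nupr1 was 3.29 at 1419666_x_at, against 3.41 without the score, and 2.87 at 1419665_a_at, against 3.61 without it. BALB/c remained the highest strain and SWR the lowest at both. Of the 5 adipocyte markers tested, the summed intensity was uneven within FVB (309 to 3875) and BALB/c (481 to 3714). With the adipocyte score in the model the Nupr1 ranges were 3.69 and 3.82.

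Of the 19 probe sets, 17 name 1 gene, and 15 of these passed the filter on dim values, covering all 7 genes. Of the 15, 10 were called in the moderated F test among the 6 strains (limma, adjusted p below 0.05), which called 36.4% of all tested probe sets. The 5 that were not called were those of Trib3 and Shmt2. Since the genes were chosen for such differences, nothing is read from this count. The median range of their strain means was 0.60 on the log2 scale, against 0.50 over all tested probe sets. A range of at least 1 was seen at 3 of them, both Nupr1 probe sets and Phgdh 1454714_x_at, as at 9.90% of all tested. At 5 of the 15 the arrays of at least 1 strain were all above or all below the other 20, as at 7.61% of all tested.

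The calls of the members against the mean of the other 5 strains are given in the same way, as a description from which nothing is read. In C57BL/6, 5 probe sets were called lower (3 of Phgdh, 1 each of Psat1 and Psph), where 5.45% of all tested were, and 1 higher, where 5.65% were. In BALB/c, 4 were called higher (both of Nupr1, 1451095_at of Asns and 1437621_x_at of Phgdh), where 8.30% were, and 1 lower (Phgdh 1454714_x_at), where 10.6% were. In SWR, 3 were called higher (5.52% of all tested) and 2 lower, both of Nupr1 (5.04%). In AKR, 3 were called higher (4.67%) and 2 lower, both of Asns (5.12%). In FVB, 2 were called higher (3.45%) and none lower (3.65%), and in 129X1, 1 was called higher (6.38%) and 1 lower (5.27%). The calls of Phgdh 1454714_x_at as higher in 5 strains go with the low BALB/c value, which enters the mean each of them is set against.

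**Figure D3:**
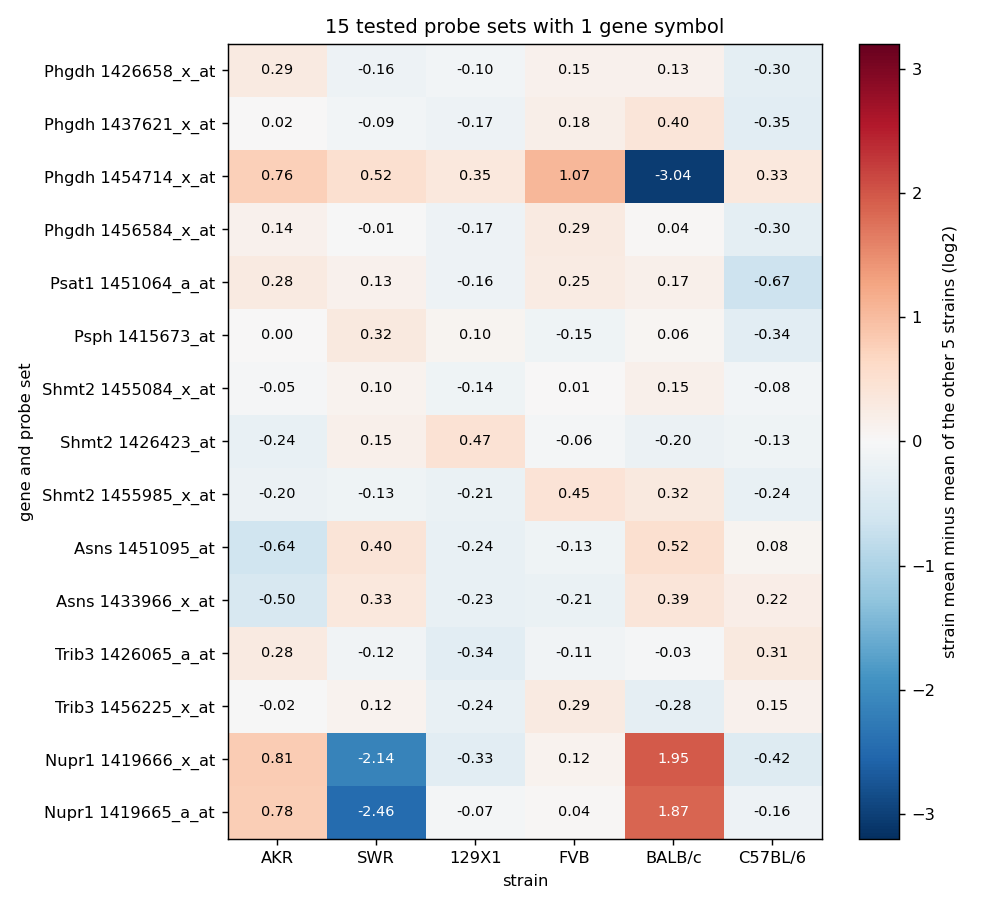
Difference between each strain's mean and the mean of the other 5 strains (log2), for the 15 tested probe sets with 1 gene symbol, strains across and probe sets down. The deepest cells are Nupr1 in BALB/c (1.95 and 1.87) and in SWR (-2.14 and -2.46) and Phgdh 1454714_x_at in BALB/c (-3.04). The C57BL/6 column is below 0 for the remaining Phgdh probe sets, Psat1 and Psph, and also for Shmt2 and Nupr1. It is above 0 for Phgdh 1454714_x_at, Asns and Trib3.

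The strain orders of the 7 genes were not one order. SWR, lowest at Nupr1, was second highest at Asns and highest at Psph. AKR, lowest at Asns, was highest at Phgdh and Psat1 by their brightest probe sets and second highest at Nupr1. C57BL/6, lowest at the 3 serine synthesis enzymes, had the highest Trib3 mean at its brightest probe set. That mean (6.05 ± 0.11) was close to AKR (6.02 ± 0.30), and C57BL/6 was highest in 30 of 33 settings. After the strain means were subtracted, the correlation between genes over the 24 arrays had a median of 0.09 across the 21 pairs. It ran from 0.50 for Psph with Asns to -0.48 for Psat1 with Shmt2, and 13 pairs were above 0. In all, 13 pairs kept their sign with any 1 array left out. These correlations share the arrays and their scaling and are given as a description.

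Other genes of the same pathways, none of them members, were compared across strains by the brightest probe set of each. Of 31 measured ATF4 targets and amino acid response genes, 12 were called in the F test, and of 18 serine, glycine and one-carbon enzymes, 7 were. The lists overlap, and 4 genes are in both of these (Slc1a5, Slc1a4, Cth and Mthfd2), of which Slc1a5 and Cth were called and so count in each. Over all 9431 genes 35.0% were called. The median range of the strain means was 0.60 in the first list and 0.55 in the second on the log2 scale, against 0.48 over all genes. Eif4ebp1, the translational repressor 4E-BP1, was at 9.99 ± 0.17 in BALB/c and 8.49 ± 0.45 in AKR, 2.84-fold apart (limma, adjusted p = 5.87e-07). Stc2, a secreted glycoprotein induced by stress, was at 6.94 ± 0.49 in FVB and 5.60 ± 0.18 in 129X1 (limma, adjusted p = 0.000253). The 129X1 mean of Stc2 was faint, within the 5.52 to 5.72 of the arrays' 40th percentile. Wars, the tryptophanyl-tRNA synthetase, was at 10.22 ± 0.25 in BALB/c and 8.91 ± 0.12 in C57BL/6, 2.47-fold apart (limma, adjusted p = 1.58e-06).

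Atf4 itself, named here after its values were seen, was 1.45-fold higher in AKR than the mean of the other 5 strains (limma, adjusted p = 0.0179) and 1.36-fold lower in C57BL/6 (adjusted p = 0.0456). This is messenger RNA, and ATF4 is controlled mainly by translation.

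The direction of the ATF4 list differed by strain. In FVB 7 genes were higher than the mean of the other 5 strains (Atf5, Ddit4, Slc38a2, Stc2, Eif4ebp1, Aldh18a1 and Ero1a), where 3.49% of all genes were, and 1 was lower. Ddit4, the mTORC1 inhibitor REDD1, was 1.97-fold higher there (limma, adjusted p = 4.27e-06). The FVB count was 4 without FVB replicate 1 and 3 without FVB replicate 2 or 3, 2 with the adipocyte score in the model and 3 with the smooth muscle score. In 129X1 none was higher and 5 were lower (Ddit4, Slc1a5, Stc2, Aldh18a1 and Wars), where 5.28% of all genes were, and the count was 2 with the smooth muscle score. In C57BL/6 2 were higher and 4 lower (Atf4, Slc38a2, Ero1a and Wars), with 5.66% of all genes lower, and 2 were lower without C57BL/6 replicate 1, 3 or 4. In BALB/c 3 were higher and 3 lower, shares close to the 8.20% and 9.16% of all genes. The lower count in BALB/c was 0 without BALB/c replicate 1 and 1 without replicate 2 or 4, and both counts lost genes with the smooth muscle score, to 1 and 0.

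Among the serine, glycine and one-carbon enzymes, Slc1a5, a transporter of serine and glutamine, was at 9.27 ± 0.05 in SWR and 7.98 ± 0.17 in 129X1, 2.44-fold apart (limma, adjusted p = 1.12e-07). Gnmt, which uses glycine to take up methyl groups, was at 8.61 ± 0.15 in C57BL/6 and 7.37 ± 0.34 in AKR (limma, adjusted p = 0.000213). Sptlc2, a subunit of the enzyme that condenses serine with palmitoyl-CoA, was at 7.65 ± 0.23 in AKR and 6.47 ± 0.18 in FVB (limma, adjusted p = 4.26e-06). In AKR 3 genes of this list were higher (Aldh1l1, Cbs and Sptlc2), where 4.25% of all genes were, and Gnmt was lower. In BALB/c none was higher and 4 were lower (Mthfd2, Aldh1l1, Cbs and Gnmt), where 9.16% of all genes were, but the count was 2 without BALB/c replicate 1, 2 or 3 and 0 with the smooth muscle score in the model. C57BL/6, with the lowest members Phgdh, Psat1 and Psph, had no lower gene among these 18, where 5.66% of all genes were. It had 2 higher genes, where 5.12% were. Nothing is read from counts this small.

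Of 18 aminoacyl-tRNA synthetases, 10 were called in the F test, where 35.0% of all genes were. Their median range was 0.45 on the log2 scale, against 0.48 over all genes. Wars, Nars and Aars are also in the ATF4 list. No strain had more than 3 of them called in the same direction. Vars, which charges valine tRNA, was at 8.06 ± 0.13 in 129X1 and 6.67 ± 0.21 in FVB, 2.63-fold apart (limma, adjusted p = 9.12e-08). Farsb, a subunit of the phenylalanine enzyme, was at 7.04 ± 0.20 in C57BL/6 and 6.10 ± 0.30 in AKR (limma, adjusted p = 0.00105). In BALB/c Nars, Qars and Wars were higher and Cars and Farsb lower, where 8.20% and 9.16% of all genes were, and the higher count was 1 without BALB/c replicate 4.

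Of 12 eIF2 alpha kinases and regulators, 5 were called, where 35.0% of all genes were, and 3 without AKR replicate 3 or 129X1 replicate 4. Their median range was 0.44, against 0.48 over all genes. In SWR, the strain with the lowest Nupr1, 3 were higher, where 5.50% of all genes were. Among them Eif2ak3 (Perk) was at 8.66 ± 0.19 in SWR and 8.10 ± 0.14 in 129X1 (limma, adjusted p = 0.00192), and Ppp1r15b, which directs a phosphatase to eIF2 alpha, was at 8.25 ± 0.13 in SWR and 7.56 ± 0.19 in BALB/c (limma, adjusted p = 0.00155). Dnajc3, an inhibitor of these kinases that also acts as a chaperone, was at 10.95 ± 0.11 in BALB/c and 10.06 ± 0.25 in FVB (limma, adjusted p = 0.00125). Dnajc3 is also in the list of endoplasmic reticulum folding genes and was called, so it counts in both lists. It is among the folding genes counted in BALB/c, 129X1 and FVB.

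The list with the largest share of calls among the 5 was endoplasmic reticulum folding, with 16 of 23 genes called, where 35.0% of all genes were. Its median range was 0.89, against 0.48 over all genes. In BALB/c, the strain with the highest Nupr1, 13 genes were higher, where 8.20% of all genes were, and in 129X1 14 were lower, where 5.28% were. The summed luminal markers were 33910 to 37947 in BALB/c, above all arrays of the other strains. In 129X1 they were 17406 to 21503, which overlapped AKR, SWR, FVB and C57BL/6. The basal marker sum was 786 to 924 in 129X1, which overlapped only SWR (606 to 805). The part of cell types in these folding counts was not tested. Pdia4 was at 9.03 ± 0.12 in BALB/c and 7.13 ± 0.35 in 129X1, 3.74-fold apart (limma, adjusted p = 5.77e-08), and Pdia6, like it a disulfide isomerase, was 3.10-fold apart between the same strains (limma, adjusted p = 2.34e-07). Herpud1 and Ern1 were lower in BALB/c. Ern1, the stress sensor Ire1, was at 6.89 ± 0.43 in C57BL/6 and 5.12 ± 0.56 in BALB/c (limma, adjusted p = 0.000172). The BALB/c mean of Ern1 was faint, below the arrays' 40th percentile of 5.52 to 5.72. With the smooth muscle score in the model, 0 genes were called higher in BALB/c and 3 lower in 129X1. The smooth muscle score of BALB/c lies below that of every other strain, so this fit cannot separate score from strain in BALB/c. Without 129X1 replicate 4 the count lower in 129X1 was 9. Nupr1 and this list were not in one order, since the Nupr1 mean of 129X1 (9.59 ± 0.36) was above that of SWR (8.08 ± 0.26), with no overlap. In AKR 3 folding genes were higher, where 4.25% of all genes were, and 0 without AKR replicate 3 or 4. In C57BL/6 4 were higher, where 5.12% of all genes were, and 1 without C57BL/6 replicate 2 and 2 without its replicate 3 or 4. In FVB 4 were lower, where 3.51% of all genes were, and 2 without any 1 of 12 arrays. These were AKR replicate 3, SWR replicates 1 and 2, 129X1 replicates 2 and 3 and FVB replicates 2, 3 and 4. The rest were BALB/c replicates 1 and 3 and C57BL/6 replicates 2 and 3.

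**Figure D4:**
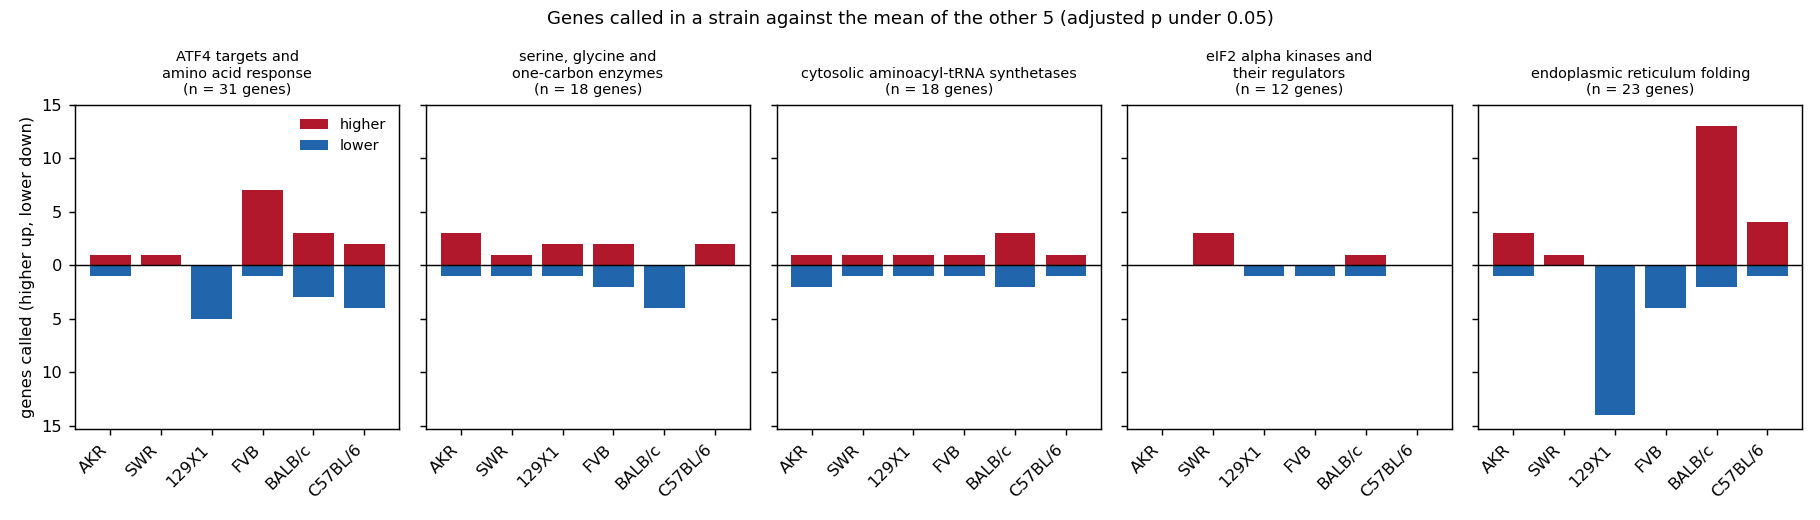
Number of genes called higher (above 0) or lower (below 0) in a strain relative to the mean of the other 5 (limma, adjusted p below 0.05), 1 panel per gene list with none of the 7 members. The folding list has 13 genes higher in BALB/c and 14 lower in 129X1, and the ATF4 list 7 higher in FVB and 5 lower in 129X1.

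For each member the 2 genes with the most similar profile over the 24 arrays were sought by Pearson correlation. Arrays of 1 strain share their genotype, so these values mostly follow the strain means. Nupr1 was most like Syt10 (0.87) and Zdhhc14 (0.85). Syt10, a synaptotagmin, averaged 6.81 ± 0.13 in BALB/c and 5.99 ± 0.19 in SWR on the log2 scale, so it shared the extremes of Nupr1 over a narrower range. Psat1 was most like Gsta4 (0.81) and Alad (0.81). Gsta4, a glutathione transferase, averaged 5.54 ± 0.40 in C57BL/6, against 7.69 to 8.47 in the other strains, so the likeness lies in the same low strain. Its C57BL/6 mean was faint, within the 5.52 to 5.72 of the arrays' 40th percentile.

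Phgdh, by its brightest probe set, was most like Uri1 (0.84) and Basp1 (0.82), and Asns most like Lrrc26 (0.84) and Mindy1 (0.82). The correlations were 0.78 and 0.73 for Psph (Fgfbp1 and Ccnd2), 0.78 and 0.78 for Trib3 (Ipo8 and Clta), and 0.72 and 0.71 for Shmt2 (Clec16a and Fam210b). The members themselves were left out of the ranking.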

How the data were processed

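The table the authors deposited holds linear intensities, 1 for each array and probe set, and the submitters' processing notes name MAS5, with settings not given in the sources used here. Every deposited column had a mean of 143, and 11 values were 0. Probe sets were named from the platform annotation, in which 20393 had 1 symbol, 691 several and 1606 none. No genome build is given for the files, and promoters were taken from RefSeq (GRCm38.p6).

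Arrays were rescaled to a common 2% trimmed mean (98.7, from 91.4 to 105 as deposited), 16 was added and log2 was taken. The 64 controls and 6851 probe sets that did not exceed their array's 40th percentile on at least 4 arrays were left out, which left 15775. The linear models were fitted in limma 3.58.1 (R 4.3.3) on the strain means (18 residual and 4.85 prior degrees of freedom), a moderated F test and a contrast of every strain with the mean of the other 5, with Benjamini-Hochberg adjustment of two-sided p-values at 0.05 over all tested probe sets. The brightest probe set stood for a gene. The p-values measure the spread among mice as far as the labels' biological replicates are separate animals, which they do not spell out. The workflow was tested on simulated data. Alternatives were another added constant (4 or 64), intensities as deposited, quantile normalization, no dim filter, mean probe sets, the replicate number as a block, 3 marker scores in the model, and each array left out in turn. Precision is limited by the number of arrays.

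All probe sets of the members were reported. For each pathway list the 3 genes called in the F test with the widest range are named, examples of strain differences are listed where at least 3 genes were called one way, and for each member the 2 genes with the highest correlation are named. Ddit4 was singled out after its values were seen. Some luminal markers are not reported here. Members and lists were chosen with earlier results of these data known.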

Additional observations from a re-analysis of the deposited data

Results flagged for a closer look

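In 10 of 102 groups of 4 arrays (a probe set of a member in 1 strain), 1 array lay far from the other 3, with a gap to its neighbour past Dixon's critical value for 4 samples. Chance gives about 1 such group in 20. Values are on the log2 scale. For Phgdh, the low values were 9.53 in C57BL/6 replicate 1 at 1426658_x_at, 9.34 in AKR replicate 3 at 1437621_x_at and 9.22 in FVB replicate 4 at 1456584_x_at, and a high value was 9.37 in C57BL/6 replicate 3 at 1437621_x_at. For Psat1, the dim probe set 1454607_s_at had a high value of 5.28 in 129X1 replicate 3. For Psph, C57BL/6 replicate 1 was high at 5.86, though still below all 4 SWR arrays. For Shmt2, 1455985_x_at had low values of 5.001 in FVB replicate 2, 4.55 in SWR replicate 3 and 4.18 in 129X1 replicate 1. For Nupr1, SWR replicate 3 was low at 7.69 at 1419666_x_at. Each array concerned belongs to a strain whose order in the report used all 4 arrays. C57BL/6 stayed the lowest strain at Phgdh 1426658_x_at without its replicate 1, where the range was 0.43 in place of 0.49, and SWR the lowest at Nupr1 without its replicate 3, where the range was 3.28 in place of 3.41.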

How the results depend on the processing

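Over 42 results and all settings, 1306 of 1398 values stayed within 1.5 times of the reported count or within the replicate spread, and 92 moved further. Only the ranges of strain means of the 15 tested member probe sets could count as reversed, by a full swap of highest and lowest strain. Of these, 0 did. A change of only the highest or only the lowest strain was not counted as a move. The cause of the moves was not tested. Fits with the smooth muscle score cannot separate score from strain in BALB/c, whose score lies below that of every other strain. With the smooth muscle score in the model, probe sets called against the mean of the other 5 strains numbered 1086 in SWR, 636 in 129X1, 208 in FVB, 285 in BALB/c and 1069 in C57BL/6 (1666, 1837, 1119, 2985 and 1750 without it). With the adipocyte score they numbered 894 in AKR, 390 in FVB, 1541 in BALB/c and 1155 in C57BL/6. With 1 array left out they ranged from 917 to 1710 in AKR, 921 to 1809 in SWR, 663 to 1164 in FVB and 1147 to 1861 in C57BL/6. In the ATF4 list the smooth muscle score gave 2 lower in 129X1, 3 higher in FVB, and 1 higher and 0 lower in BALB/c, the adipocyte score gave 2 higher in FVB and 2 lower in C57BL/6, and no dim filter gave 2 lower in C57BL/6. The ATF4 count lower in BALB/c was 7 as deposited, 1 with no dim filter, and 5 by mean probe sets. One-carbon enzymes lower in BALB/c were 2 with the adipocyte or skeletal muscle score and 0 with the smooth muscle score. Synthetases higher in BALB/c were 1 as deposited and with the adipocyte or smooth muscle score. The smooth muscle score left 2 eIF2 alpha regulators and 9 folding genes in the F test. It gave folding counts of 1 higher in AKR, 3 lower in 129X1, 0 lower in FVB, 0 higher in BALB/c and 2 higher in C57BL/6. The adipocyte score gave 1 higher in AKR, 2 lower in FVB and 2 higher in C57BL/6, and a pseudocount of 4 or no dim filter gave 2 lower in FVB. With 1 array left out, ATF4 counts ranged from 3 to 7 higher in FVB, 0 to 4 lower in BALB/c and 2 to 4 lower in C57BL/6, one-carbon enzymes from 2 to 4 lower in BALB/c, synthetases from 1 to 3 higher in BALB/c, eIF2 alpha regulators from 3 to 5 in the F test, and folding genes from 0 to 3 higher in AKR, 9 to 14 lower in 129X1, 2 to 4 lower in FVB and 1 to 4 higher in C57BL/6.

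Replicate numbers were not treated as pairs. Arrays of 1 number in different strains had a mean correlation of deviations of 0.00532 over 60 pairs (-0.208 to 0.153). Of 24 arrays, 3 had their best match at the same number. A low mean correlation does not show that the numbers share nothing. The skeletal muscle score was highest in replicate 4 of AKR (0.43), SWR (1.05), 129X1 (1.57), FVB (0.20) and C57BL/6 (0.45), but not of BALB/c (-0.56). Whether the numbers follow a shared order of handling was not tested. With the replicate block, 1 ATF4 gene was called lower in BALB/c and 2 folding genes lower in FVB, and no other count moved by over 1.5 times.

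Faint members depend on the constant added. With 64 in place of 16 the log2 range was 0.43 for Psat1 1451064_a_at, 0.32 for Psph and 0.28 for Trib3 1426065_a_at, against 0.79, 0.55 and 0.54. The highest and lowest strains of Psph, both Nupr1 probe sets, Phgdh 1454714_x_at and Phgdh 1456584_x_at held in 33 of 33 settings. No dim filter and the replicate block are among these settings and cannot change a member's strain means. The top strain changed in 4 settings at Psat1 1451064_a_at, and likewise in some settings at Trib3 1426065_a_at and Shmt2 1455084_x_at. The lowest strain changed in at least 1 setting at each tested probe set of Shmt2 and Trib3.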
